A study of Mus musculus with 4 samples.

Results

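The cytosolic ribosomal proteins are the protein parts of the large (60S) and small (40S) ribosomal subunits that translate nuclear-encoded mRNAs. They were examined on 4 one-colour Agilent arrays of mouse bone marrow-derived macrophages (BMDMs). Members were taken by name from the array annotation: Rpl or Rps followed by a digit, or Rplp0, Rplp1 or Rplp2, without the Rps6k kinases and the -ps pseudogenes. This gave 84 genes with 181 probes, out of 23686 named genes. Of these, 46 were 60S core genes and 29 were 40S core genes, 75 in all, out of a list of 76. Rps23 was not analysed here. The other 9 carried a like-sounding name: the paralogs Rpl3l, Rpl7l1, Rpl10l, Rpl22l1, Rpl36al, Rpl39l, Rps27l and Rps4y2, and Rps19bp1, which encodes a binding partner of Rps19 and is not a ribosomal protein. Each gene was read from its brightest probe. Its signal was divided by the 75th percentile of the array's signals and compared on a log2 scale.

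All cells came from 10-week-old C57BL/6J mice, were grown for 6 days with L929 supernatant as a source of M-CSF, and were then stimulated for 2 days. The M2 array held wild-type BMDMs given IL-4 at 50 ng/ml. The second held BMDMs of genotype p18 (2400001E08Rik) -/-, called Lamtor1-deficient here, also given IL-4 at 50 ng/ml. The third held wild-type BMDMs given IL-4 at 50 ng/ml with Torin1, an inhibitor of the mTOR kinase, at 250 nM. The M1 array held wild-type BMDMs given IFNγ at 20 ng/ml and LPS at 100 ng/ml. According to the study's methods the deletion was driven by LysM-Cre, which acts in myeloid cells. Each condition was 1 array with no replicate, so no test between conditions was possible, and all 3 comparisons shared the M2 array. Any value below therefore compares 2 RNA samples. In bulk RNA, fewer cells of a type and less RNA per cell cannot be told apart.

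The ribosome is assembled from rRNAs and the ribosomal proteins, most of them present as a single copy. Most mRNAs of these proteins start with a C followed by a run of pyrimidines, the 5′ terminal oligopyrimidine (TOP) motif. mTORC1, the nutrient-sensing kinase complex that is recruited to the lysosome through Lamtor1, is known for controlling how well TOP mRNAs are translated. An array measures the mRNA level and not translation.

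Pyrimidine runs can be seen in the genome around some of the annotated starts. The following windows of RefSeq sequence (GRCm38.p6, gene strand) show 15 bases before and 15 bases from the annotated start, with the words CTTTC and CTTCC in capitals. The first 5 are core genes and the last 2 are paralogs, of Rps27 and Rpl39. The core windows are examples that hold CTTTC, and those of Rpl4, Rpl5, Rps6, Rps9 and Rps15, not shown, held neither word.
Rpl35, chr2:39005117-39005146, minus strand: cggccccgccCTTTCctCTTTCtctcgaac
Rpl28, chr7:4792950-4792979, plus strand: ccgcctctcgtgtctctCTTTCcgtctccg
Rpl38, chr11:114668565-114668594, plus strand: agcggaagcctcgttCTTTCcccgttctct
Rplp2, chr7:141447636-141447665, plus strand: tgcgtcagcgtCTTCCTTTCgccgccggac
Rps27, chr3:90213634-90213663, minus strand: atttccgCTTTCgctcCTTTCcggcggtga
Rps27l, chr9:66946071-66946100, plus strand: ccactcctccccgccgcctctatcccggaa
Rpl39l, chr16:10170213-10170242, plus strand: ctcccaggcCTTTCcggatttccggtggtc

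RefSeq promoters were matched for 63 of the 84 genes, 55 of them core. Within 25 bases of the annotated start, CTTTC stood on the gene strand in 18 of 65 core promoters (27.7%), against 6.75% of all 32851 promoters. CTTCC stood there in 16 of the 65 (24.6%), against 10.6%. Counted on either strand the shares were 33.8% against 12.5% for CTTTC and 43.1% against 21.7% for CTTCC, and CTTCC and CTTTC can overlap by 1 base. Of the 10 like-named promoters, 1 held CTTTC and 3 (30%) held CTTCC on the gene strand. CCGGAAG, a word that ETS-family factors can bind, stood on either strand of the 300-base promoters in 36.9% of core promoters and 8.86% of all. These words are a description of sequence, and the annotated start can lie some bases away from the start used in macrophages.

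Ribosomal protein genes have many processed pseudogenes, and near-identical transcripts can bind one another's probes. Probe sequences on the array overlap in this way. Among the 181 member probes, 35 probes of 28 genes matched a probe of another name over 40 or more bases with at most 3 mismatches, and for 21 genes this was the probe used here. In the pairs below, 30 bases of the 60-base member probe and the matching bases of the pseudogene or predicted-gene probe are shown, with the differing bases in capitals. Positions are those of the whole 60-base probes in mm9.
Rpl35, chr2:38857101-38857160: caacgacaataaagtgCgagactgactggc
Gm2000, chr1:158296562-158296621: caacgacaataaagtgAgagactgactggc
Rpl36, chr17:56753615-56753674: ggcGgCggccaagaaggattgatgaaccct
Gm13611, chr2:32127661-32127720: ggcTgAggccaagaaggattgatgaaccct
Rpl22l1, chr3:28706237-28706296: gagTctgaggactaattggcctctgcttgt
LOC100042049, chr5:22034094-22034153: gagCctgaggactaattggcctctgcttgt
Rps13, chr7:123475080-123475934, across an intron: atactAtaagactaagcgggtgctcccacc
Gm12270, chr11:61019238-61019297: atactTtaagactaagcgggtgctcccacc

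The Rpl35 pair differed by C47A (counted from the 5′ end of the member's probe), the Rpl36 pair by G4T and C6A, the Rpl22l1 pair by T6C, and the Rps13 pair by A6T, T31C and C58A. After Torin1, Rpl35 had a log2 ratio of 0.56 to M2 and Gm2000 0.54. Rpl22l1 had -0.59 and LOC100042049 -0.53. Over all 45 such pairs, 2 of them without a mismatch, the median difference in log2 ratio was 0.067 for Lamtor1-deficient, 0.068 for Torin1-treated and 0.088 for M1 over M2. Unmatched probes were not compared in this way, and the core genes differ little among themselves in Lamtor1-deficient BMDMs, so closeness alone does not show shared signal. All 42 partner probes were well above background on all 4 arrays. Among probes that carried a ribosomal protein name with -ps, 16 of 17 were well above background on all 4 arrays, and all 16 were higher than on M2 on both the Lamtor1-deficient and the Torin1 array, with medians of 0.36 and 0.93. How much of any member's signal came from pseudogene transcripts was not tested.

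Probe positions differed as well. For 12 of 180 probes with a known chromosome on both sides, in 6 genes, the annotated mm9 chromosome differed from that of the RefSeq gene. All 4 Rps27 probes were placed on chromosome 9 while RefSeq has Rps27 on chromosome 3, and all 3 Rps29 probes on chromosome 2 while RefSeq has it on chromosome 12. The 2 Rps2 probes were placed far apart on chromosome 17, at 42864841 for the brightest and 24857583 for the other. The values of Rps27 and Rps2 below carry this uncertainty.

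Between 51.0% and 55.5% of 55681 probes were well above background, no spot was saturated, and the 75th percentile was a signal of 595 on M2, 536 on Lamtor1-deficient, 470.0 on Torin1 and 287 on M1. The single Lamtor1 probe read 39460 on M2 and 833 on the Lamtor1-deficient array, 2.34% of M2 after scaling. All 8 macrophage markers were well above background on every array, with summed normalised signals of 475 to 799, of which Csf1r made up 485 of the 799 on M2. Single markers moved more than the sum: Emr1 had log2 ratios to M2 of -2.57 in Lamtor1-deficient and -2.81 after Torin1, Fcgr1 -4.96 and -4.61, and Cd14 -1.86 in Lamtor1-deficient BMDMs. The 5 listed M2 genes summed to 1379 on M2, 771 on Lamtor1-deficient, 588 on Torin1 and 6.19 on M1, and the 5 M1 genes to 1.60, 19.2, 17.3 and 752. Chi3l3 alone made up 488, 569 and 567 of the first 3 M2-gene sums and did not fall there. The others fell: Arg1 had ratios of -6.01 in Lamtor1-deficient and -7.14 after Torin1, Mrc1 -1.42 and -2.64, and Ccl24 -1.99 and -6.84. Retnla had -2.17 in Lamtor1-deficient and was not well above background on Torin1. Nos2 made up 18.6 of the M1-gene sum on Lamtor1-deficient and 16.5 on Torin1, whereas Tnf had ratios of -1.88 and -0.60. Of 6 neutrophil markers on the array, 5 or 6 were well above background, and over the 5 with a value on every array the sum was 87.8 on M2, 6.21 on Lamtor1-deficient, 5.82 on Torin1 and 4.36 on M1. The other marker, left out for want of a usable Torin1 spot, went another way, and with it the sums were 100.2 on M2, 24.8 on Lamtor1-deficient and 56.4 on M1. Fibroblast markers (4 to 6 of 6) summed to 43.2, 55.9, 15.3 and 16.0, and lymphocyte markers (3 to 6 of 8 well above background) to 2.69, 2.65, 2.01 and 4.17 over the 7 with a value on every array. Here too 1 marker without a usable Torin1 spot was left out, and with it the sums were 12.2 on M2, 9.89 on Lamtor1-deficient and 37.3 on M1. The part of other cells in the results below was not tested.

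Repeated spots give the technical error. One Rpl23 probe was printed 10 times, and the SD of its log2 signal was 0.043 on M2, 0.045 on Lamtor1-deficient, 0.061 on Torin1 and 0.076 on M1. A log2 ratio between single spots of it would thus have an SD of 0.062, 0.075 and 0.087 for the 3 comparisons. Over all probes with 8 or more usable spots the same SD was 0.12, 0.13 and 0.15. These errors hold no biological variation.

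The core genes were bright on every array. On M2, 74 of the 75 lay between 45078 and 334383, the exception being Rpl21 at 449, and the median was 172615. The median was 197215 on Lamtor1-deficient (74 genes), 237329 on Torin1 and 48670 on M1. Among the 100 brightest probes of each array, ribosomal protein probes numbered 22 on M2, 25 on Lamtor1-deficient and 28 on Torin1, but 1 on M1. The summed signal of the core genes was 5.18% of all probe signal on M2, 5.54% on Lamtor1-deficient, 6.87% on Torin1 and 2.76% on M1. On all 4 arrays, 74 of the 75 core genes and 7 of the 9 like-named genes were well above background.

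**Figure D1:**
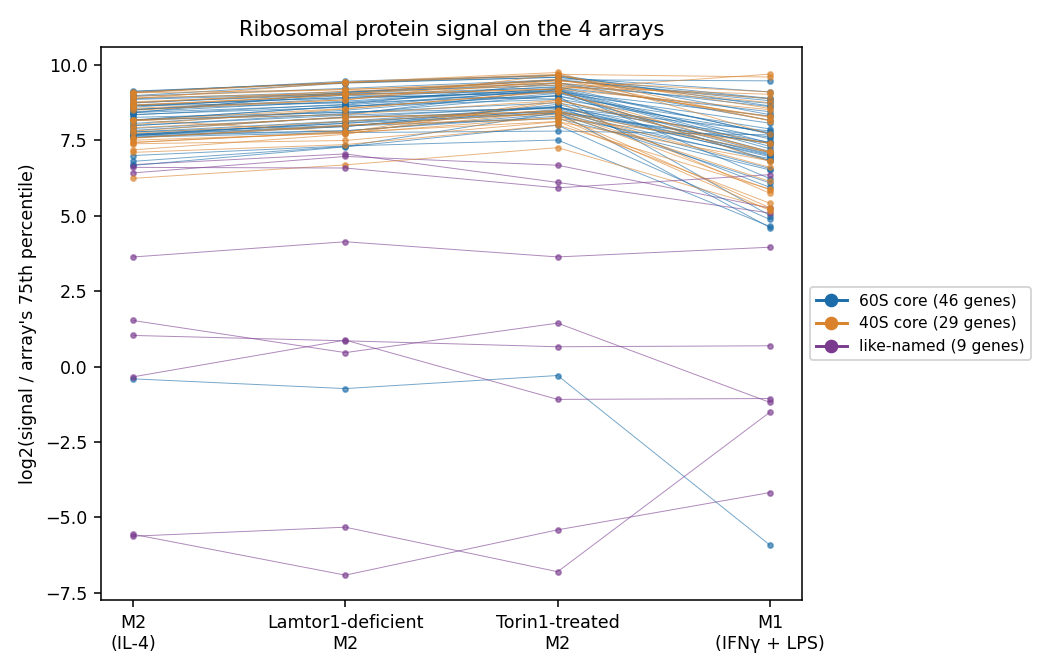
Each line joins the values of 1 gene on the 4 arrays (x axis, 1 array per condition, in no order of time). The y axis is log2 of the signal divided by the array's 75th percentile. The core genes form a narrow band at the top that widens and falls on the M1 array, with Rpl21 far below it, and the like-named genes are spread over the whole range.

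Torin1-treated BMDMs had higher ribosomal protein mRNA signals than M2 BMDMs across both subunits. All 46 of the 60S core genes and all 29 of the 40S core genes had a log2 ratio above 0, while 47.4% of 23660 named genes did. The median ratio of the core genes was 0.65, with an interquartile range of 0.55 to 0.85, against -0.05 for all genes and 0.02 for the genes that every array detected well above background. The 60S median was 0.63 and the 40S median 0.69. Past 2-fold were 11 of the 84 members upwards and 1 downwards (Rpl3l, whose probe was near background on both arrays, so that its ratio has no meaning), against 14.3% of all genes upwards and 11.7% downwards (26.1% in either direction). The 11 upward calls fell to 3 with a median shift, against 10.0% of all genes, and to 2 with quantile normalization, against 11.2%. Past 1.5-fold were 52 members, 48 upwards (57.1%) and 4 downwards, against 25.3% and 19.4% of all genes (44.7% in either direction). With a median shift 20 members (23.8%) were past 1.5-fold upwards, against 18.1% of all genes, and with quantile normalization 9 (10.8%), against 20.8%, so the upward count depended on the scaling.

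The highest Torin1 ratio belonged to Rpl5, which binds 5S rRNA together with Rpl11 and, when free, holds back Mdm2. Its signal was 66606 on M2, 84593 on Lamtor1-deficient, 161338 on Torin1 and 6996 on M1. The Torin1 value was the highest of the 4 and the M1 value the lowest, with log2 ratios of 1.62 after Torin1 and -2.20 in M1. Its partner Rpl11 read 276153, 284918, 321134 and 82684, a Torin1 ratio of 0.56, and its other 2 probes gave 0.78 and 0.91, while Rpl5 has a single probe. Rps15, a 40S protein of the small subunit head, read 86657, 111834, 207190 and 15398, and its Torin1 ratio was 1.60, or 1.27 with its second probe.

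Rpl4, which lines the peptide exit tunnel, read 60652 on M2, 83823 on Lamtor1-deficient, 120649 on Torin1 and 8438 on M1. Its ratio of 1.33 after Torin1 was next after those of Rpl5 and Rps15. The other listed tunnel proteins, Rpl17 and Rpl39, had Torin1 ratios of 1.00 and 0.53, and a second bright Rpl39 probe gave 0.26.

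Rps6, the 40S protein that S6 kinase phosphorylates downstream of mTORC1, read 154815, 200053, 266241 and 31993. Its log2 ratio was 1.12 after Torin1, 0.52 in Lamtor1-deficient and -1.22 in M1. A second Rps6 probe gave 1.15, 0.36 and -1.59 for the same 3 comparisons, and another, dimmer probe gave 0.73, 0.46 and -3.14. Rps9, at 225425, 246221, 385979 and 81751, also had a Torin1 ratio of 1.12.

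The stalk of the large subunit, which recruits translation factors, is built from Rplp0, Rplp1 and Rplp2 on Rpl12. Rplp0 read 280609 on M2, 297317 on Lamtor1-deficient, 302091 on Torin1 and 121853 on M1. Rplp1 read 216433, 273922, 220389 and 62174, and Rplp2 read 331364, 365945, 382178 and 114758. Their Torin1 ratios were 0.45, 0.37 and 0.55, all below the core median of 0.65, while Rpl12 had 0.84, but the other Rplp0 probes gave 0.58 and 0.72. With this scaling the Torin1 ratio of Rplp1 was below its Lamtor1-deficient ratio of 0.49.

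Rpl13a, which is known to leave the ribosome upon IFNγ signalling and to repress inflammatory mRNAs, read 114966, 134316, 172771 and 36715. Its ratios of 0.93 after Torin1, 0.37 in Lamtor1-deficient and -0.59 in M1 lay among those of the other 60S genes. A dim second probe gave 0.23, 0.10 and -1.47.

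Several paralogs were lower after Torin1. Rps27l, a p53-inducible relative of Rps27, read 57978 on M2, 51506 on Lamtor1-deficient, 28616 on Torin1 and 23636 on M1. Its Torin1 ratio was -0.68, whereas that of Rps27 was 0.99. Rpl22l1 read 61732, 71239, 32421 and 9796, a Torin1 ratio of -0.59 beside 0.74 for Rpl22.

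Rpl39l, a relative of Rpl39 best known from the testis, read 470.5, 987, 221 and 138. Its Torin1 ratio was -0.75 beside 0.53 for Rpl39, and it was the only member well above background whose signal was more than 2-fold higher in Lamtor1-deficient BMDMs (ratio 1.22). Rpl7l1, which works in ribosome assembly, read 1218, 971, 742 and 463, with ratios of -0.38 after Torin1 and 0.39 for Rpl7. Rpl36al was 0.25 and Rpl36a 0.51.

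Rps4y2 read 1718 on M2, 740.2 on Lamtor1-deficient, 1277 on Torin1 and 126 on M1. Its ratios were -0.09 after Torin1, -1.06 in Lamtor1-deficient and -2.72 in M1. Rps19bp1 read 7394, 9463, 5851 and 4461 and had ratios of 0.00, 0.51 and 0.32 in the same order, with the sign of the first and last depending on the scaling. Of the 7 like-named genes well above background, 5 were thus lower after Torin1 than on M2, against 52.6% of all genes, and no core gene was. The Torin1 ratio of Rps4y2 was smaller than the technical SD of 0.13. Below 0 were 2 of 75 core genes with a median shift and 12 of 74 with quantile normalization, where Rps27l, Rpl22l1 and Rpl39l had -0.69, -0.63 and -0.74. Rpl10l was well above background on no array, and Rpl3l, a muscle form of Rpl3, only on M1, at 101 against 12.1 on M2, which made it at least 9.66-fold higher there.

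**Figure D2:**
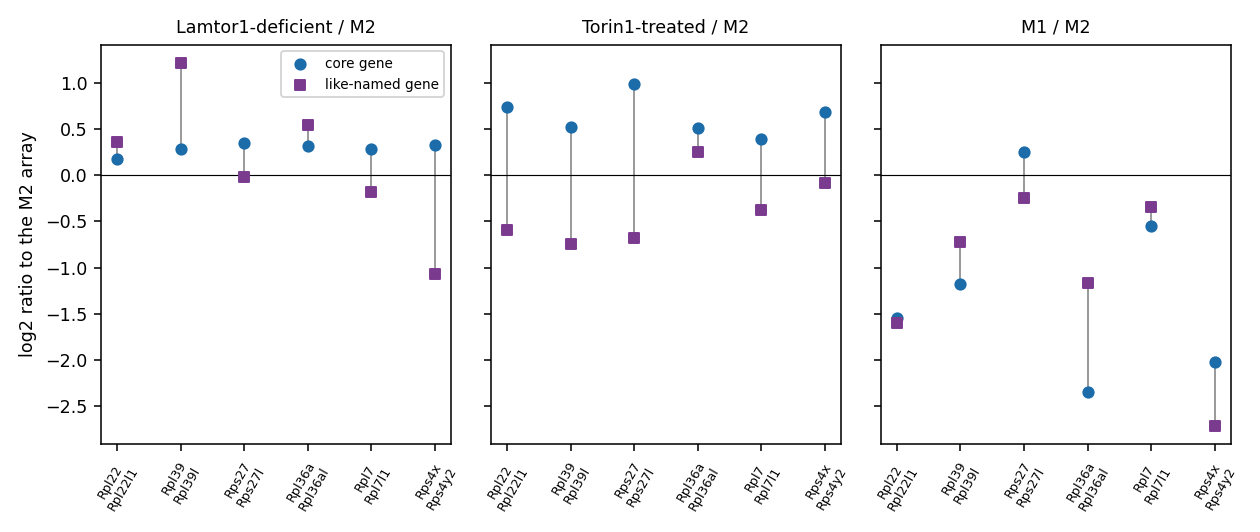
Log2 ratio to the M2 array (y axis) of 6 core genes (circles) and their like-named relatives (squares) in the 3 comparisons, with a line joining each pair; there is 1 array per condition and no error bar. After Torin1 the circle lies above the square in all 6 pairs, whereas in Lamtor1-deficient and M1 BMDMs the order is mixed.

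Lamtor1-deficient BMDMs also had higher ribosomal protein signals than M2 BMDMs. Of 74 core genes with a value, 72 were higher than on M2, against 63.3% of all genes. The median log2 ratio was 0.33, with an interquartile range of 0.24 to 0.40, against 0.04 for all genes and 0.08 for those well above background on all 4 arrays. The 60S and 40S medians were both 0.33. Past 2-fold were 3 members (1 up, 2 down), against 17.6% of all genes in either direction, 8.9% upwards and 8.74% downwards. The 3 were Rpl39l upwards, Rps4y2 downwards, and Rpl10l, which was not well above background and whose ratio has no meaning. No core gene passed 2-fold. Past 1.5-fold were 3 members upwards and 2 downwards, against 16.7% and 15.1% of all genes (31.8% in either direction). The members' share past either limit was thus below that of all genes, while their median was above. Set beside Torin1 on the same M2 array, the Torin1 ratio was the higher in 73 of the 74 core genes. This order depended on the scaling: it held in 44 of 74 with a median shift, where the medians of these genes were 0.40 for Lamtor1-deficient and 0.42 for Torin1, and in 48 of 74 with quantile normalization.

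The highest core ratios in Lamtor1-deficient BMDMs were those of Rpl23 (0.69), Rpl4 (0.62) and Rps20 (0.54). Rpl23, which like Rpl5 and Rpl11 can bind Mdm2, read 202758 on M2, 294248 on Lamtor1-deficient, 342720 on Torin1 and 129286 on M1. Its probe with 10 spots gave 0.57 and its other bright probe 0.34. Rps20 read 280673, 368491, 389118 and 222990. Rpl36al, with 51072, 67177, 48114 and 10997, had 0.55.

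The exceptions below 0 among the core genes were Rpl21 (-0.32) and Rps13 (-0.41). Rps13 read 173300 on M2 and 117260 on Lamtor1-deficient with its brightest probe, but 132516 and 150278 with its second probe, a ratio of 0.33. The brightest probe is the one shown above beside Gm12270, whose probe gave -0.36. The dimmer Rpl21 probe gave 0.01, and the probes named Rpl21-ps1, Rpl21-ps4 and Rpl21-ps5 gave 0.29, 0.30 and 0.26. The directions of Rps13 and Rpl21 therefore depended on the probe. In all, 1 core gene had no usable spot on the Lamtor1-deficient array and was left without a value there.

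**Figure D3:**
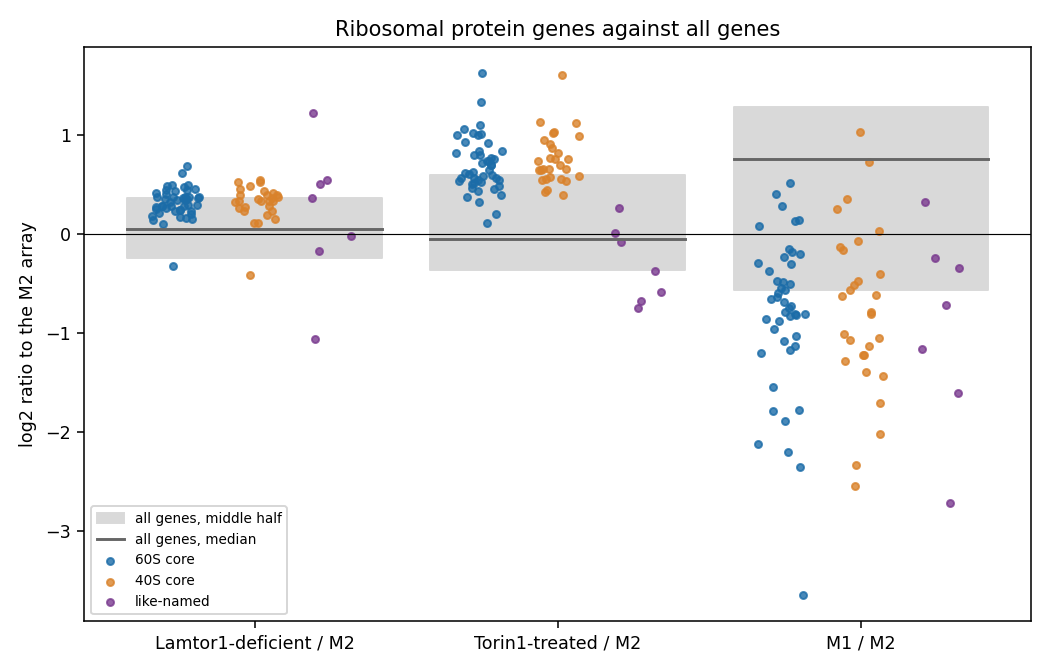
Log2 ratio to the M2 array (y axis) of each member well above background on both arrays (points, 60S core, 40S core and like-named genes), beside the interquartile range (grey) and median (dark line) of all named genes; points are single arrays without replicates. The core genes plotted sit at a median of 0.33 in Lamtor1-deficient, 0.65 in Torin1-treated and -0.74 in M1 BMDMs.

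M1 BMDMs had lower ribosomal protein signals than M2 BMDMs, with a wide spread between genes. Of 75 core genes, 64 were lower, against 34.8% of all genes, and the median log2 ratio was -0.75, with an interquartile range of -1.19 to -0.30. The median of all genes was 0.75, much of it from dim probes, since for genes well above background on all 4 arrays it was 0.05. Of 13017 such genes, 6341 were lower in M1. Past 2-fold were 25.8% of them downwards and 24.1% upwards, and past 1.5-fold 33.8% and 35.4%, so the contrasts with all genes below are partly due to dim probes. Past 2-fold were 30 members downwards (35.7%) and 3 upwards, against 19.2% and 30.7% of all genes (49.9% in either direction). Of the 3 upwards, Rps24 was the only 1 well above background on both arrays, the others being Rpl3l and Rpl10l. Past 1.5-fold were 49 downwards and 4 upwards, against 24.7% and 53.6% (78.3% in either direction). These counts and shares belong to this scaling. With a median shift 66 members were past 2-fold downwards and 1 upwards, against 31.7% and 15.6% of all genes, and 74 and 1 were past 1.5-fold, against 39.1% and 22.5%. With quantile normalization 50 were past 2-fold downwards and 1 upwards, against 23.9% and 18.8%. The 60S median was -0.74 and the 40S median -0.79.

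The lowest measured M1 ratio was that of Rpl10a, a 60S protein of the L1 stalk, at 240080 on M2, 230852 on Lamtor1-deficient, 237329 on Torin1 and 9232 on M1. The M1 array alone stood apart, with a log2 ratio of -3.65, and the second Rpl10a probe gave -3.73. Rps2, at 133513, 167543, 153532 and 11049, had -2.54. Rpl36a, at 76168, 85512, 85990 and 7188, had -2.35, and Rps18, at 108320, 114187, 144688 and 10371, had -2.33. Rpl21 read 449, 324 and 383 on the M2-type arrays and was not well above background on M1, so it was at least 11.5-fold lower there by this probe and at least 6.12-fold by the other. The brighter probes of Rpl21-ps1, Rpl21-ps4 and Rpl21-ps5 had smaller M1 changes, with log2 ratios of -1.95, -1.71 and -1.86.

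A few core genes did not follow. Rps24 read 243528 on M2, 275138 on Lamtor1-deficient, 278198 on Torin1 and 238197 on M1, so that its raw signals were near alike and its scaled M1 ratio was 1.02. Its other probes gave 1.04, 0.86 and, for a dim one, 0.15. The Gm6030 probe, which matched the brightest Rps24 probe over 42 bases with 2 mismatches, gave 0.87. Rps20 had 0.72, Rpl41 0.51 and Rpl23 0.40. Rpl10, at 301477, 361983, 362500 and 158229, had 0.12. For Rpl10 and Rpl23 the sign also turned with the probe: another Rpl10 probe, with a higher M2 signal of 360519, gave -0.73, and a second bright Rpl23 probe gave -0.37. The signs of Rps20, Rpl41, Rpl23 and Rpl10 turned when the arrays were centred on their medians, where Rps20 had -0.10, Rpl41 -0.31, Rpl23 -0.42 and Rpl10 -0.70, whereas Rps24 stayed at 0.20. The spread between members, unlike their sign, does not depend on a common shift of the array.

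The M1 ratios were also set against brightness. Across the 75 core genes the Spearman correlation of the M2 signal with the M1 ratio was 0.53, given as a description over genes of the same 2 arrays, which share the M2 value. Split by the M2 signal, the dimmer 37 genes had a median M1 ratio of -1.07 and the brighter 38 had -0.48. For Torin1 the correlation was -0.41, with medians of 0.76 and 0.59, and for Lamtor1-deficient it was -0.16, with 0.36 and 0.29. Whether brightness limits the change a spot can show was not tested.

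Scaling set the size of these shifts. With quantile normalization, which makes the 4 signal distributions equal, the core medians were 0.11 for Lamtor1-deficient, 0.20 for Torin1 and -1.20 for M1, and 53 of 74 and 62 of 74 core genes stayed above 0 in Lamtor1-deficient and Torin1-treated BMDMs (1 gene was dropped, for want of a value on 1 array). Rpl10a, Rplp0 and Rplp1 then had Torin1 ratios of -0.19, -0.14 and -0.19, and among the genes named here Rpl10a, Rpl11, Rpl15, Rpl41 and Rplp0 had ratios just below 0 in Lamtor1-deficient BMDMs, at -0.16, -0.10, -0.03, -0.01 and -0.06. Rpl5, Rps15, Rpl4 and Rps6 kept Torin1 ratios of 1.27, 1.23, 1.00 and 0.69. With a median shift the core medians were 0.40, 0.41 and -1.57, and all-gene medians were 0.11, -0.30 and -0.07. The distance between core and all-gene medians was 0.29, 0.70 and -1.50, which no shift of a whole array can change. It was 0.10, 0.25 and -1.14 under quantile normalization and 0.21, 0.43 and -1.66 with normexp, and 0.25, 0.63 and -0.83 over probes well above background on both arrays compared. The share of upward calls among all 2-fold calls moved from 55.0% to 39.0% for Torin1 and from 61.6% to 33.0% for M1 with the median shift.

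**Figure D4:**
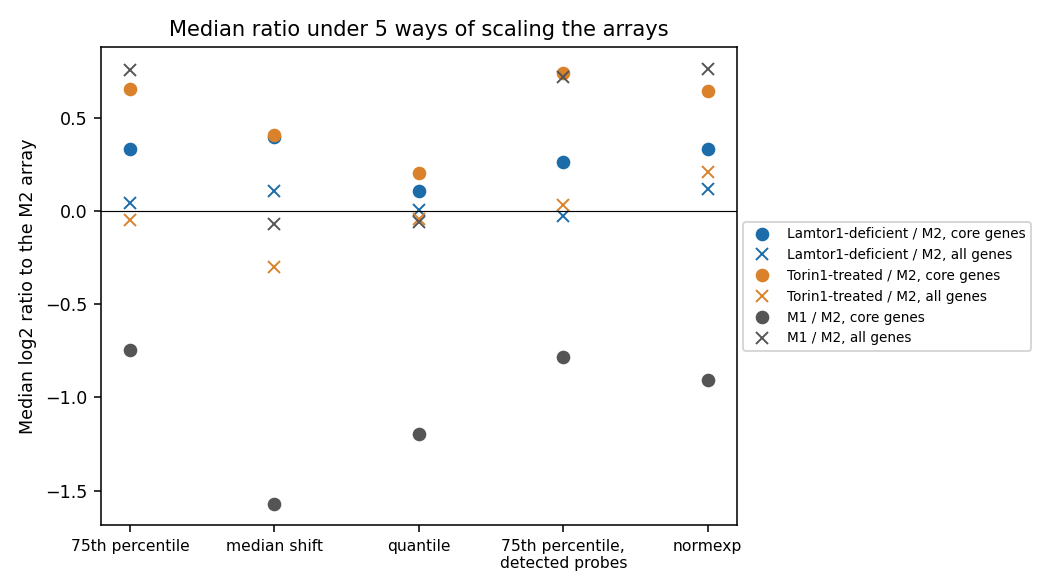
Median log2 ratio to the M2 array (y axis) of the core genes (circles) and of all named genes (crosses) under 5 ways of scaling (x axis), with colours for the 3 comparisons. The core medians stay above 0 for Lamtor1-deficient and Torin1-treated and below 0 for M1 BMDMs under all 5, but quantile normalization takes the Torin1 median from 0.65 to 0.20.

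Probes of the same gene did not always tell the same story. Of 52 core genes with several probes well above background on all 4 arrays, 44 had probe ratios within 0.5 of each other in Lamtor1-deficient over M2, 37 in Torin1 and 26 in M1. The median range within a gene was 0.14, 0.30 and 0.51. Rps15a, a 40S protein, read 114285 on M2, 138627 on Lamtor1-deficient, 141050 on Torin1 and 49012 on M1 with its brightest probe. With another it read 53176, 158008, 177371 and 54770, so the ratios were 0.43 against 1.72 in Lamtor1-deficient and 0.64 against 2.08 after Torin1. Rps3 had 0.26 with its brightest probe and 1.26 with a dim one in Lamtor1-deficient BMDMs.

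A pattern ran through the dim probes. For 16 core genes a second probe, well above background on all 4 arrays, had at most 1 part in 10 of the signal of the brightest. Both probes were picked on the mean log2 signal over all 4 arrays. A low M1 or Torin1 value could thus itself help a probe to count as dim, so the differences below are not independent of this choice. On M2 alone the dim Rpl13a probe, at 12738 against 114966, would not have met the limit. In 13 of them it lay 202 to 1659 bases downstream of the brightest probe in the genome. In 11 of these 13 genes the dim downstream probe had the lower M1 ratio, with a median of -2.72 against -1.03 for the brightest probes. In 11 it also had the lower Torin1 ratio (0.23 against 0.79), and 6 were below 0 after Torin1 although none of the brightest probes was.

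Rpl22, whose brightest probe had -1.55 in M1, had -4.03 with the dim probe 1497 bases downstream, which read 6978 on M2, 6563 on Lamtor1-deficient, 9964 on Torin1 and 206 on M1. Rpl23 had 0.40 with its brightest probe and -3.09 with the probe of 10 spots 433 bases downstream, at 16864, 22529, 23993 and 958. Rpl15 had -0.38 and -2.75 in M1, and 0.64 and -0.93 after Torin1, with the dim probe 1069 bases downstream at 5369, 4489, 2227 and 384. Rps25 had 0.39 and -0.40 in Lamtor1-deficient BMDMs. Rps6 had -1.22 and -3.14 in M1. Rps3 and Rpl6 were the exceptions in M1, with dim-probe ratios of -0.05 and -0.08 above those of their brightest probes.

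Among genes that are no members, 1069 probes of 964 genes met the same brightness condition, at any position. The dim probe had the lower ratio in 38.4% of them in M1, 53.3% after Torin1 and 64.5% in Lamtor1-deficient BMDMs. Over the 16 core genes at any position it did so in 14, 13 and 13, respectively. The other genes had median M1 ratios of 0.40 for dim and 0.14 for brightest probes. According to the labels the RNA was primed with oligo-dT, and which transcripts the downstream probes detect was not tested.

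**Figure D5:**
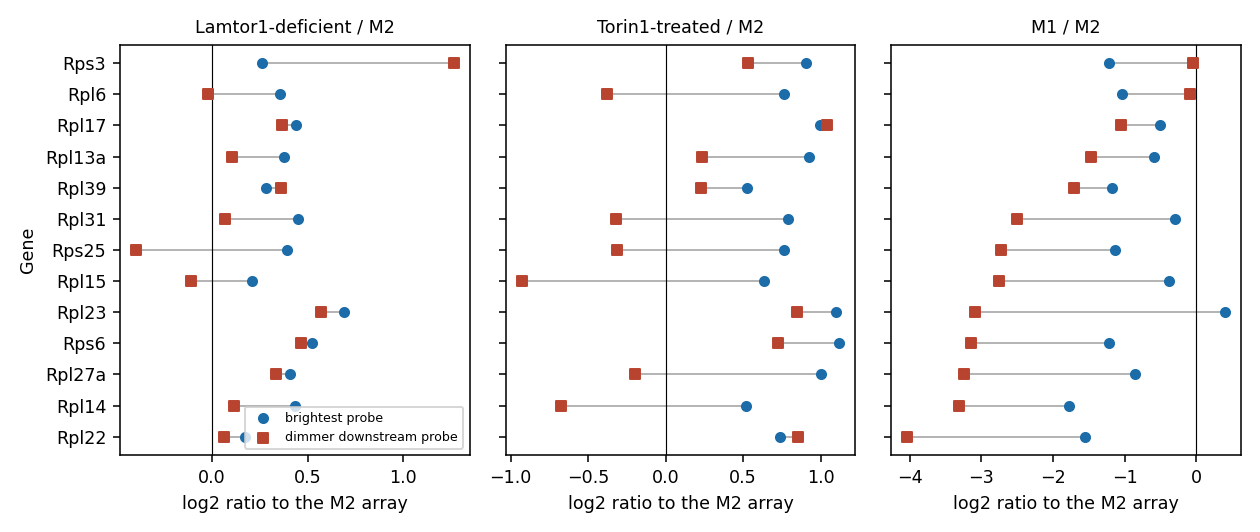
Log2 ratio to the M2 array (x axis, a separate scale for each comparison) of the brightest probe (circle) and the dimmer downstream probe (square) of 13 core genes (y axis), 1 array per condition. In M1 the square lies to the left of the circle in 11 of 13 genes, as it does after Torin1, and in Lamtor1-deficient BMDMs it also does so in 11 but over shorter distances. Both probes were picked on their mean signal over the arrays compared.

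Other translation genes were listed for comparison. Rpsa, Fau and Gnb2l1 (Rack1), ribosomal proteins whose names fall outside the rule, had Torin1 ratios of 0.63, 0.49 and 0.45 and Lamtor1-deficient ratios of 0.26, 0.16 and 0.24. Rpsa after Torin1 alone was past 1.5-fold in these comparisons. In M1 they split, with Rpsa at -1.44, Gnb2l1 at -1.51 and Fau, a ubiquitin-like fusion that yields Rps30, at 0.95.

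The 19 translation factors and other genes known for TOP mRNAs had medians of 0.26 in Lamtor1-deficient, 0.65 after Torin1 and -0.97 in M1, close to those of the core ribosomal proteins. After Torin1, 6 of the 19 (31.6%) were past 2-fold upwards and 0 downwards, against 14.3% and 11.7% of all genes, but with a median shift 3 were upwards (15.8%, against 10.0% of all genes) and 1 downwards, and with quantile normalization 2 of 19 were upwards, against 11.2% of all genes, and 0 downwards. Eif4b, which aids the eIF4A helicase, read 7499 on M2, 9270 on Lamtor1-deficient, 24501 on Torin1 and 3819 on M1, a Torin1 ratio of 2.05. Eif3f had 1.43 and the elongation factor Eef2 1.35. In Lamtor1-deficient BMDMs Vim had 0.62, Eef1g 0.50 and Naca 0.46, and none of the 19 was past 2-fold, against 17.6% of all genes in either direction. In M1, Hnrnpa1 had -3.93, Eef1d -2.28 and Npm1 -2.18.

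The 76 mitochondrial ribosomal protein genes went another way after Torin1. Their median was -0.40, beside 0.65 for the cytosolic core genes, and 61 were below 0, against 52.6% of all genes. Past 2-fold, 6 (7.89%) were lower and 1 (1.32%) higher, both smaller shares than the 11.7% and 14.3% of all genes. With a median shift 15 (19.7%) were past 2-fold downwards, against 15.6% of all genes. Mrps28 read 12738 on M2, 12688 on Lamtor1-deficient, 3013 on Torin1 and 247 on M1, with ratios of -1.74 after Torin1 and -4.64 in M1. Mrps25 had -1.36 and Mrpl24 1.39 after Torin1. In Lamtor1-deficient BMDMs the median was 0.23, with 61 above 0 (80.3%, against 63.3% of all genes). Only Mrpl41 (1.32) was past 2-fold, against 17.6% of all genes in either direction, followed by Mrpl51 (0.78) and Mrpl16 (0.75). In M1 the median was -0.41, with 25 past 2-fold downwards (32.9%, against 19.2% of all genes) and 6 upwards (7.89%, against 30.7%), or 47 (61.8%, against 31.7%) and 1 with a median shift, and Mrps6 (-4.11) and Mrps2 (-3.53) were the next lowest after Mrps28.

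The kinases and regulators that link mTOR to translation had no common direction, with medians over 20 genes of 0.14, 0.01 and -0.21. Rps6ka2, an S6 kinase of the ERK-driven RSK family, read 186 on M2, 2812 on Lamtor1-deficient, 1439 on Torin1 and 91.8 on M1, with ratios of 4.07 without Lamtor1 and 3.29 after Torin1. Rps6ka1 of the same family read 29398, 16876, 8540 and 5069, with -0.65 and -1.44. Pdcd4, which restrains eIF4A, had 1.52 after Torin1, Rps6kb1, the S6 kinase of mTORC1, had 0.81 in Lamtor1-deficient, where Rps6ka5 had -1.19, and Eif4ebp1, the mTORC1 target that restrains eIF4E, had 1.90 in M1, where Rps6kl1 had 1.71 and the eEF2 kinase Eef2k, at 250.3 on M2 and 30.1 on M1, had the lowest ratio of the list.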

How the data were processed

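The authors hybridised 4 RNA samples to Agilent mouse 8x60K arrays and deposited the scanner output, with Feature Extraction 10.5.1.1 named in the labels and 10.7.3.1 in the file headers. The processed signal is an intensity per spot, background-subtracted by that program, per the file headers. A deposited value table held the same intensity values to within 0.497% and was an alternative here. Non-control, non-outlier spots were averaged per probe, raised to at least 1, divided by the array's 75th percentile, following the methods, and put on a log2 scale. Well above background is the scanner program's own flag. A 2-fold and a 1.5-fold limit were used. The highest and lowest 5 members per comparison, all like-named members, 7 fixed genes, the 3 brightest and dimmest, the members with the most discordant probes and the top 3 of each other list were named, except a few genes that are not reported here. Members, lists and rules were chosen with earlier results of these data known. A gene not well above background on 1 array has a bound, from the higher of its own signal and the lowest signal flagged well above background there. The code of the 2-fold call was checked on a simulated pair of arrays, which covers spot noise only. Python 3.11.15, NumPy 2.4.6, pandas 2.3.3, SciPy 1.17.1, matplotlib 3.10.9, R 4.3.3 and limma 3.58.1 (normexp only) were used. Alternatives were a median shift, quantile normalization, a percentile over detected probes, normexp with an offset of 50, a floor, kept outlier spots, other probe choices and core genes only. Precision is limited by 1 array per condition. All arrays were on 1 slide. Probe positions are mm9, and RefSeq names and promoters are GRCm38.p6.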

Additional observations from a re-analysis of the deposited data

How the results depend on the processing

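With 1 array per condition nothing could be tested between conditions, no replicate could be left out, and Rpl10l, Rpl3l and, in M1, Rpl21 have a bound or no ratio. No paired analysis was possible because each group holds a single array. The medians kept their direction under every alternative run. Over M2, the Lamtor1-deficient median of members moved from 0.33 to 0.11 with quantile normalization. The Torin1 median moved from 0.64 to 0.39 with a median shift and 0.17 with quantile normalization. The M1 median moved from -0.73 to -1.55 with a median shift, -1.18 with quantile normalization and -0.95 with the dimmest probe. Members past 2-fold in Lamtor1-deficient BMDMs numbered 3 (1 upwards and 2 downwards, against 8.9% and 8.74% of all genes). They numbered 1 with normexp (upwards, against 4.61% of all genes), 5 with the dimmest probe and 0 among core genes. After Torin1 they numbered 12 (11 upwards, against 14.3% of all genes, and 1 downwards, against 11.7%). They numbered 4 with a median shift (3 upwards, against 10.0% of all genes, and 1 downwards, against 15.6%). With quantile normalization they numbered 3 (2 upwards, against 11.2%, and 1 downwards, against 12.9%). In M1 they numbered 33 (30 downwards, against 19.2% of all genes), but 67 with a median shift (66 downwards, against 31.7% of all genes) and 51 with quantile normalization (50 downwards, against 23.9%). Members past 1.5-fold numbered 5 in Lamtor1-deficient BMDMs (against 31.8% of all genes), but 9 with the dimmest probe and 2 among core genes. After Torin1 they numbered 52 (48 upwards, against 25.3% of all genes). With a median shift they numbered 25 (20 upwards, against 18.1%) and with quantile normalization 13 (9 upwards, against 20.8%). The cause was not tested. The other 82 of 99 values moved by less than the technical SD or, for counts, by at most 1.5 times. Of the values of single named genes, 867 moved by less than the technical SD, 273 by more, and 1 that was past 2-fold turned its sign: Rpl10l in Lamtor1-deficient BMDMs, at 0.041 with the floor.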
